A study of Mus musculus with 8 samples.

Results

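The cells described here are mostly keratinocytes of the outer, differentiating layers of the epidermis. They were recovered in a sort for tdTomato+ cells of the E16.5 mouse forelimb, and some also carried basal or mesenchymal RNA. A cell was counted as a member when it had at least 3000 UMIs (unique molecular identifiers, each standing for 1 captured RNA molecule), at most 10% mitochondrial UMIs, and 2 or more UMIs in at least 3 of the 6 genes *Calm4*, *Ly6d*, *Asprv1*, *Lor*, *Sprr1a* and *Them5*. By this rule 655 of 11109 cells of the proximal limb library and 32 of 8447 cells of the distal limb library were members, 687 of 19556 cells in all. The series holds 53085 cells after the same filter. Members were thus chosen by their own UMIs of these 6 genes, and the comparison of members with the other cells of their library is a description with no test. There was 1 library per limb segment, so that no p-value can be given, and the intervals below cover counting error only.

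The series followed cells of the *Hic1* lineage through forelimb development by single-cell RNA sequencing, with sorted tdTomato+ cells from E11.5 to E16.5 and whole E11.5 limbs. Both E16.5 libraries came from C57BL/6J embryos that carried *Hic1* CreERT2 on both alleles and the *Rosa26* LSL-tdTomato reporter on both alleles. In these embryos the *Hic1* promoter drives a Cre recombinase that acts only in the presence of tamoxifen, and a cell that has recombined the reporter stays tdTomato+ along with its descendants. Dams received 7.5 mg of tamoxifen by gavage at E10. Limb segments of several embryos were pooled for each library. The proximal library was made from the segment around the elbow and the distal library from the lower forearm with the hand. The sort kept living tdTomato+ cells and removed cells stained for CD45, CD117, CD31, CD11b, F4/80 or Ter119, markers chiefly of blood and endothelial cells. The methods of the study mention small *Krt1*+ or *Krt14*+ epithelial clusters at E16.5, regarded there as contaminating, which were taken out of its aggregated data. They are present in the matrices used here.

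The epidermis renews itself from a basal layer of *Krt5*+ *Krt14*+ cells that sit on the basement membrane and divide. Cells that leave this layer stop dividing, switch to the keratins *Krt1* and *Krt10*, strengthen their desmosomes and become spinous cells. In the granular layer above they make the proteins of the cornified envelope, among them loricrin (*Lor*), involucrin and the small proline-rich proteins, together with the lipids that seal the skin. In the mouse this barrier is acquired in the last days of gestation. Of the rule genes, *Calm4* encodes a calmodulin-like protein of the epidermis, *Asprv1* a protease that processes filaggrin, *Ly6d* a surface protein of keratinocytes and *Them5* an acyl-CoA thioesterase.

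Members were deeply sampled. The proximal members had a median of 45109 UMIs (3253 to 131775) and 4834 genes, against 18008 UMIs and 4062 genes in the other proximal cells. The distal members had a median of 47155.5 UMIs (6371 to 99734) and 5290.5 genes, against 17239 UMIs and 4085 genes in the other distal cells. As a reference of the same tissue, other epithelial cells were defined as non-members with 2 or more UMIs in at least 3 of *Krt5*, *Krt14*, *Krt15*, *Krt1*, *Krt10*, *Epcam* and *Perp*. These numbered 335 in the proximal and 54 in the distal library, with medians of 21520 and 19902 UMIs. The 2 libraries shared 30 barcodes, 2 of them members in the proximal library and 0 in both. Scrublet's own threshold marked 1 proximal and 0 distal cells as doublets, which is too few for the caller to have worked, and doublets were therefore kept.

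Some members also carried mesenchymal RNA, and values of several results below moved with it. A list of 16 mesenchyme genes (collagens, *Dcn*, *Lum*, *Prrx1*, *Twist1*, *Pdgfra* and others) made up a median of 0.0266% of the UMIs of a proximal member and 2.60% of those of another proximal cell. In 97 of the 655 proximal members and 2 of the 32 distal members the list reached 0.5% or more. Of these 97 proximal members, 64 were among the 889 proximal cells with the top 8% of Scrublet doublet scores, which held 89 members in all. Members at or above the limit are called mesenchyme-positive below, and values are given with and without them where it matters.

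Members made up 5.90% of the proximal cells (95% exact binomial interval 5.47 to 6.35) and 0.379% of the distal cells (0.259 to 0.534). With 1 UMI per rule gene these shares were 12.1% and 0.485%. At E14.5 the rule found 15 of 8381 cells (0.179%). In the sorted E11.5, E12.5 and E13.5 libraries and in both whole E11.5 libraries it found 0 cells, which, at the limit of 3 cells that a count of 0 allows, leaves shares of up to 0.0948%, 0.0636%, 0.0490%, 0.0549% and 0.0528%. The segments were collected and sequenced as 1 library each, so that segment, library and Cell Ranger version cannot be told apart in the difference between the E16.5 shares.

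**Figure D1:**
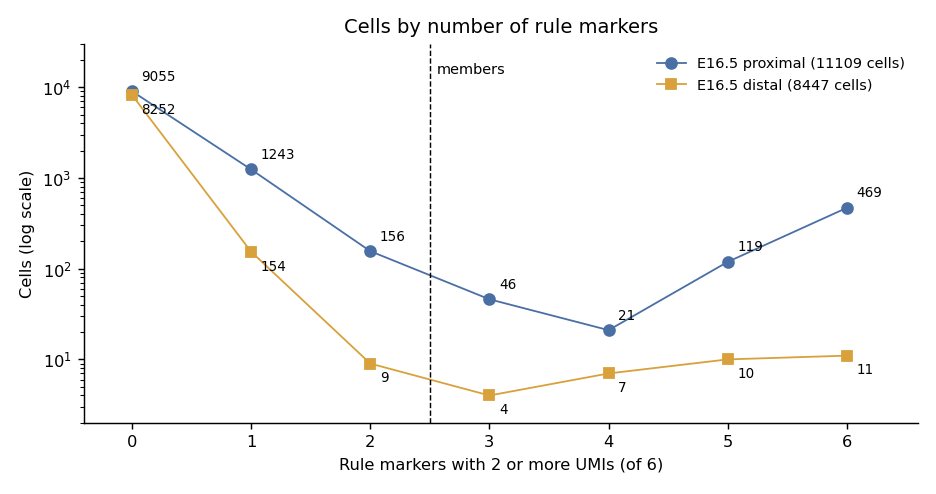
Number of cells (y axis, log scale) by the number of rule genes with 2 or more UMIs (x axis, 0 to 6) in the proximal (circles) and distal (squares) E16.5 libraries, with the threshold as a dashed line. The proximal counts fall from 9055 cells with 0 genes to 21 with 4 and then climb to 469 with all 6, whereas the distal library has 4, 7, 10 and 11 cells with 3, 4, 5 and 6 genes.

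Most proximal members met the rule with room to spare. All 6 genes were at 2 or more UMIs in 469 of them, 5 in 119, 4 in 21 and 3 in 46, and 156 cells just outside the rule met 2. In the distal library 11, 10, 7 and 4 cells met 6, 5, 4 and 3 genes, and 9 cells met 2. At the threshold itself the proximal cells with 3 genes had medians of 4 *Calm4*, 2 *Ly6d* and 2 *Asprv1* UMIs, and the cells with 2 genes had medians of 2, 0 and 1. *Sprr1a* had medians of 1 and 0 UMIs, and *Them5* of 0 in both. *Lor* went the other way, with medians of 1 and 2 UMIs, and 45.7% and 52.6% of these cells had 2 or more. The median share of mesenchyme-list UMIs was 0.133% in the proximal cells with 3 genes and 0.952% in those with 2.

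The 6 rule genes differed in how evenly members carried them. Levels of groups of cells are given here and below as CPM, the UMIs of a gene summed over the cells of a group per 1000000 UMIs of the same cells. *Calm4* (chr13:3837757-3838673, GRCm38, plus strand) had a median of 332 UMIs per proximal member and 122 per distal member. *Ly6d* (chr15:74762056-74763620, minus strand) had medians of 253 and 311. *Asprv1* (chr6:86628164-86629710, plus strand) had medians of 117 and 30.5. All 3 were present at 2 or more UMIs in nearly every member, the lowest share being that of *Asprv1* in the distal library, 30 of 32. *Them5* (chr3:94342099-94347352, plus strand) had medians of 34 and 36 UMIs, and 596 proximal and 30 distal members had 2 or more.

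*Sprr1a* was less even in the distal members, and *Lor* was uneven in both libraries. *Sprr1a* (chr3:92483952-92485895, minus strand) encodes a cross-linked protein of the cornified envelope. It had a median of 161 UMIs in the proximal members, 590 of which had 2 or more. In the distal members the median was 50.5, and 22 of them had 2 or more. *Lor* (chr3:92080271-92083142, minus strand) had a median of only 19 UMIs in the proximal members and 0.5 in the distal members, while single cells reached 7595 and 5705 UMIs. One distal member held 77.0% of the *Lor* UMIs of the distal members. RNA of these genes was also seen at a low level outside the members: 2 or more *Lor* UMIs were present in 6.72% of the other proximal cells and 1.34% of the other distal cells, at 19.9 and 5.51 CPM, and *Krt10* had at least 1 UMI in 52.4% of the other proximal cells. The other cells include the other epithelial cells, which had 97.2 CPM of *Krt10* in the proximal library, and the part of free RNA in these values was not tested.

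Every member carried tdTomato RNA, while *Hic1* RNA was nearly absent. The 655 proximal members had 1 to 160 tdTomato UMIs (median 39), 947 CPM (exact Poisson 95% interval 936 to 958), against 1397 CPM (1392 to 1402) in the other proximal cells. The 32 distal members had 1 to 74 tdTomato UMIs (median 25), 575 CPM (539 to 613), against 856 CPM (851 to 860) in the other distal cells. The log2 ratio was -0.56 (-0.58 to -0.54) in the proximal and -0.57 (-0.67 to -0.48) in the distal library. The median gene of these comparisons was at -0.63 and -0.54, so that tdTomato lay close to the middle of all genes.

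Between the segments tdTomato differed by the same amount in members as in other cells. The other epithelial cells had 1041 CPM in the proximal and 795 CPM in the distal library. By number of rule genes, proximal members had 1112 CPM with 3, 1059 with 4, 873 with 5 and 948 with 6. Distal members were lower than proximal members by a log2 ratio of -0.72, and the other cells of the distal library were lower than those of the proximal library by -0.71. After every cell was thinned to 3000 UMIs, 90.1% of proximal members (87.5 to 92.3) and 95.2% of the other proximal cells had a tdTomato UMI. In the distal library these shares were 78.1% (60.0 to 90.7) and 86.8%. Without thinning they were 100% and 99.9% in the proximal library and 100% and 99.2% in the distal library, so that the direction of the share turns with depth. No immune, glial or melanocyte class of at least 20 cells, which could have served as a lineage without tdTomato, was left in either library. The 123 proximal cells with markers of muscle had 1330 CPM. Their median share of mesenchyme-list UMIs was 2.14%, close to the 2.60% of all other proximal cells. The study reported no contribution of tdTomato+ cells to the myogenic lineage, and these cells cannot serve as a lineage without tdTomato.

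*Hic1*, a transcriptional repressor whose locus (chr11:75164565-75169519, minus strand) carries the CreERT2 allele, gave 71 UMIs in the 655 proximal members, 2.43 CPM (1.89 to 3.06), and 24.8 CPM (24.1 to 25.5) in the other proximal cells. The members were 10.2-fold lower (log2 ratio -3.35, -3.71 to -3.02). This log2 ratio was -1.12 with 1 UMI per rule gene and -5.67 without mesenchyme-positive members. The 32 distal members had 0 *Hic1* UMIs against 28.1 CPM in the other distal cells, at least 15.1-fold lower with a floor of 3 UMIs over the group. A *Hic1* UMI was present in 7.02% of proximal members and 31.2% of the other cells, and in 0.458% and 6.78% after thinning. The other epithelial cells had 4.99 CPM in the proximal and 3.99 CPM in the distal library. CreERT2 RNA, at 0.691 and 1.68 CPM in the other cells, had 0 UMIs in members of either library. For the proximal members this is at least 6.74-fold lower, whereas the distal members are too few for a difference to be detectable.

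The residual *Hic1* signal and the tdTomato signal moved differently with mesenchymal RNA. Of the 71 *Hic1* UMIs, 59 were in the 97 mesenchyme-positive members (12.6 CPM). The other 558 proximal members held 12 UMIs, 0.488 CPM (0.252 to 0.852). The same 558 cells had 936 CPM of tdTomato, against 1006 CPM in the mesenchyme-positive members. In the 377 proximal members with under 0.03% mesenchyme-list UMIs, tdTomato was at 971 CPM and *Hic1* at 0.284 CPM.

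Set against the mesenchyme list, the *Hic1* ratio was alike in the 3 groups of proximal cells, with overlapping intervals. The tdTomato ratio was not, but its rise in members was largely fixed by the denominator and is a description only. Members held less of the list than the other cells (2574 against 28764 CPM in the proximal library), while tdTomato lay near the median gene. *Hic1* stood at 0.0942 UMIs per 100 mesenchyme-list UMIs in proximal members (0.0736 to 0.119), 0.0871 in the other epithelial cells and 0.0863 in the other cells. tdTomato stood at 36.8 UMIs per 100 mesenchyme-list UMIs in proximal members (36.4 to 37.2), 18.2 in the other epithelial cells and 4.86 in the other cells. Without the mesenchyme-positive members the tdTomato value was 266 in proximal and 170 in distal members, a rise that leaving out cells rich in the denominator fixes, and the proximal *Hic1* value was 0.139 (0.0718 to 0.243). The distal tdTomato values were 58.8 in members, 5.46 in the other epithelial cells and 2.61 in the other cells. The distal *Hic1* values were 0 in members (0 to 0.235), 0.0274 in the other epithelial cells (0.00890 to 0.0639) and 0.0858 in the other cells (0.0833 to 0.0883), so that the latter intervals did not overlap there. Whether the tdTomato RNA of members was made in them was not tested.

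**Figure D2:**
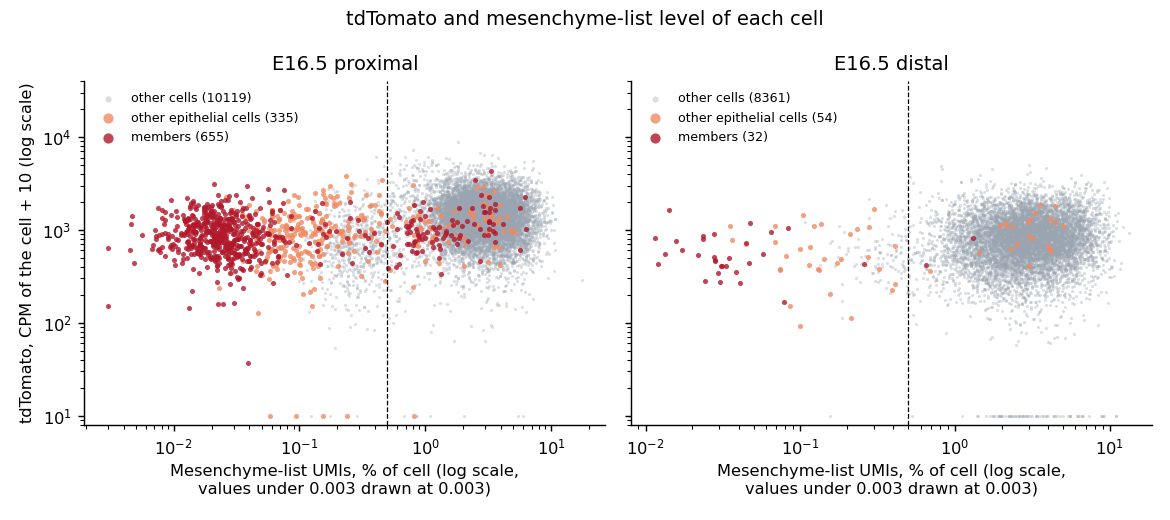
tdTomato of each cell (y axis, CPM + 10, log scale) against the percentage of its UMIs from the mesenchyme list (x axis, log scale) for members, other epithelial cells and other cells of each library, with the 0.5% limit dashed. Members sit around a median of 0.0266% on the x axis in the proximal library and the other cells that are not epithelial around 2.66%, while tdTomato of members spans 1 to 160 UMIs per cell.

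Members differed across the transcriptome from the other cells of their library, most of which were not epithelial (10119 of 10454 in the proximal library). Of 9190 genes at 10 CPM or more in at least 1 group, rule genes left out, 556 (6.05%) were 4-fold or more higher in members than in the other cells in both libraries and 1639 (17.8%) were 4-fold or more lower in both. Centred on the median gene, a scaling chosen after seeing the data, the counts were 748 and 991, and higher genes made up 43.0% of the calls in place of 25.3%. With a pseudocount of 10 CPM they were 276 and 477. The lower genes depended on the rule, for with 1 UMI per rule gene 4 were called and the 15 named below were not among them. The proximal library alone gave 596 higher (6.97%) and 1761 lower (20.6%) of 8557 genes, and the distal library alone 632 (7.12%) and 1864 (21%) of 8871.

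The leading genes included the keratins of the spinous layer. *Krt1*, the type II keratin of spinous cells, was at 9829 CPM in proximal members and 13.8 CPM in the other cells (log2 ratio of CPM + 1, 9.37), and at 21304 and 8.62 CPM in the distal library (11.11). Its partner *Krt10* was at 12163 and 42.6 CPM (8.12) and at 23645 and 29.6 CPM (9.59). Both were present in nearly every member, *Krt1* in 97.6% and 96.9% and *Krt10* in 98.2% and 100%. The other leading genes were *Fam25c*, *Hrnr*, *Sprr1b*, *Serpinb12*, *Krt77*, *Ly6g6c*, *Serpinb2*, *Rab25*, *Dsc1*, *Krtdap*, *Sult2b1*, *Dsg1a* and *Sbsn*, with log2 ratios of 7.38 (*Dsg1a*) to 8.57 (*Fam25c*) in the proximal and 7.37 (*Sbsn*) to 9.89 (*Sprr1b*) in the distal library. *Krtdap* encodes a secreted peptide of differentiating keratinocytes and was at 15117 and 69.7 CPM in the proximal library. *Sult2b1*, the sulfotransferase that makes cholesterol sulfate, was at 344 and 0.807 CPM there.

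Not all leading genes were spread evenly. *Hrnr*, a large repeat protein of the granular layer, had a median of 3 UMIs in proximal members and 0.5 in distal members, and 1 distal cell held 60.1% of its distal UMIs. *Krt77* was found in 79.7% of proximal but only 34.4% of distal members, with 41.6% of the distal UMIs in 1 cell. *Rab25*, a small GTPase of epithelial vesicle traffic, was in 95.9% and 100% of members.

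The 15 lowest were *Acta2*, *Col9a3*, *Col9a2*, *Lect1*, *Eln*, *Igfbp5*, *Hapln1*, *Col9a1*, *Sparcl1*, *Col2a1*, *Nov*, *Pth1r*, *Mest*, *Fibin* and *Loxl2*. *Col2a1*, the collagen of cartilage, was at 133 CPM in proximal members and 1997 CPM in the other cells (-3.90), and at 4.36 and 482 CPM in the distal library (-6.49). One proximal member held 19.8% of the *Col2a1* UMIs of the proximal members. All 16 genes of the mesenchyme list were called lower in both libraries, with a summed level of 2574 against 28764 CPM in the proximal and 979 against 32816 CPM in the distal library.

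**Figure D3:**
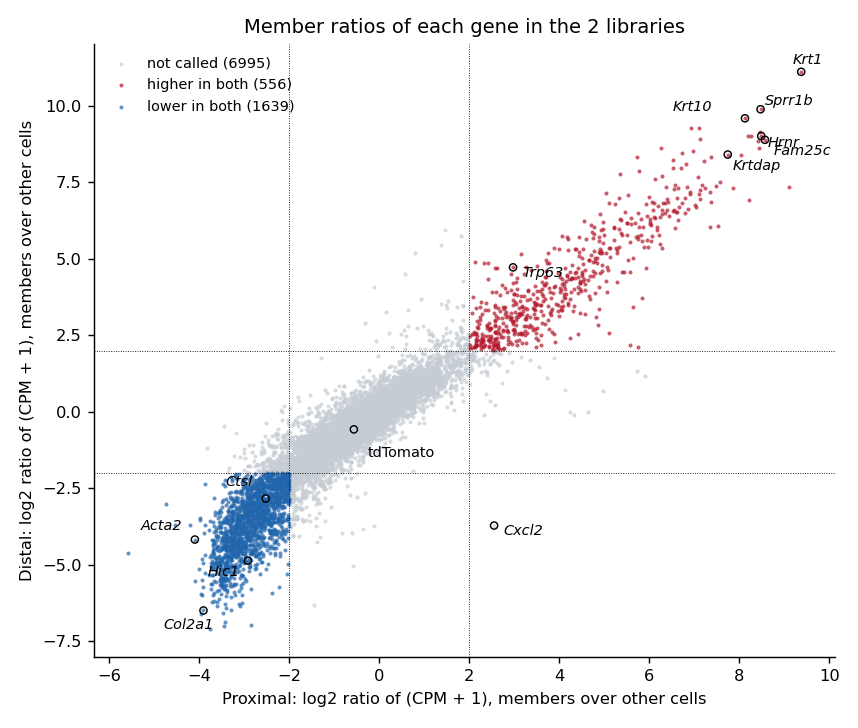
Log2 ratio of (CPM + 1) of members over the other cells for 9190 genes, proximal library on the x axis and distal library on the y axis, with 4-fold lines dotted. The 556 genes higher in both and the 1639 lower in both lie in opposite corners, tdTomato lies in the central cloud at -0.56 and -0.57, and *Cxcl2* is the 1 gene past 4-fold in opposite directions.

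Structural genes of the spinous layer and of the cornified envelope were higher. Over all 9190 genes, for reference, 6.05% were called higher and 17.8% lower, and the median log2 ratio was -0.63 in the proximal and -0.54 in the distal library. A gene under 10 CPM in the other cells was tested only when members carried it, so that its call as higher was largely fixed by the filter, and the counts of higher genes in the lists and families below are descriptions that support nothing. Of 11 basal genes, 8 were tested and 2, *Trp63* and the laminin chain *Lama3*, were called higher in both libraries (medians 1.09 and 3.84). The basal list summed to 1311 CPM in proximal members, 663 CPM in the other cells and 110 CPM in those of them that were not epithelial. *Krt5*, *Krt14* and *Krt15* had log2 ratios of 1.37, 0.80 and 1.47 in the proximal and 5.46, 5.19 and 5.93 in the distal library. The other epithelial cells were above members in both, with *Krt14* at 6737 against 457 CPM and at 4410 against 1411 CPM. Of 10 spinous genes, 8 were tested and all 8 were called higher, with median log2 ratios of 7.61 and 8.47 and a summed level of 60553 CPM in proximal and 77242 CPM in distal members. *Sfn*, the 14-3-3 protein that marks stratified epithelium, had the smallest ratio in the proximal library (4569 against 111 CPM, 5.35). The 2 not tested were *Mt4* and *Tgm5*. Of 23 granular and cornified envelope genes, 12 were tested, each of them reaching 10 CPM only in members, and all 12 were higher (medians 6.19 and 6.54). Among them were *Ivl* (involucrin, 267 against 0.447 CPM proximal) and the cross-linking enzymes *Tgm1* (166 against 2.52 CPM) and *Tgm3* (61.4 against 0.160 CPM). *Casp14*, a caspase of cornification, was at 117 against 0.243 CPM.

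Some genes of the granular list were at a low level. Filaggrin (*Flg*), called higher like *Flg2*, was at 4.37 CPM in proximal and 25.5 CPM in distal members and *Flg2* at 10.5 and 10.6 CPM. The 11 granular genes under 10 CPM in every group were *Kprp*, *Krt2*, *Rptn*, *Sprr3* and the 7 *Lce1* genes of the list. *Krt2*, a keratin of later suprabasal epidermis, was at 0.342 and 0 CPM. *Lce1a2*, *Lce1b* and *Lce1d* had 0 UMIs in the members of both libraries.

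Most adhesion and tight junction genes tested were higher. Some of them passed the filter only through members, so their counts are not to be read against the 6.05% of all genes. The adhesion list summed to 8228 CPM in proximal members and 2694 CPM in the other epithelial cells, and the tight junction list to 824 and 379 CPM. Of 15 desmosome and adhesion genes, 13 were tested and 12 were higher (medians 5.52 and 6.81), the exception being *Cdh3*, the P-cadherin of basal cells (2.63 against 5.68 CPM proximal, 3.74 against 12.9 CPM distal). *Dsp*, the plakin that anchors keratin to desmosomes, was at 1652 against 14.5 CPM in the proximal and 2709 against 6.61 CPM in the distal library. *Perp*, a tetraspan desmosomal protein, was at 4304 against 55.4 CPM and 3427 against 7.60 CPM. Of 11 tight junction genes, 9 were tested and 8 were higher, all but *Tjp1*, with *Cldn4* at 420 against 8.51 CPM and *Cldn1* at 118 against 8.17 CPM in the proximal library.

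Of 16 barrier lipid genes, 14 were tested and 9 were higher (medians 3.91 and 3.03). Genes under 10 CPM in the other cells, such as *Elovl4*, were tested only through members. The count is therefore not to be read against the 6.05% of all genes. *Elovl4*, which makes the very long acyl chains of skin ceramides, was at 902 against 8.56 CPM in the proximal and 673 against 9.40 CPM in the distal library. *Abca12*, the lipid transporter of lamellar granules, was at 102 against 0.214 CPM and *Alox12b*, the lipoxygenase of the ceramide pathway, at 69.8 against 0.0778 CPM in the proximal library. Among the tested genes that were not called were *Elovl6*, *Slc27a4*, *Smpd1* and *Ugcg*. Of 16 proteases and inhibitors, 12 were tested, 10 were higher and 1, *Ctsl*, was lower (97.8 against 565 CPM proximal, 54.8 against 397 CPM distal). The inhibitor *Spink5* was at 204 against 0.467 CPM, and *Klk7*, a protease it restrains, at 37.2 against 0.136 CPM in the proximal library.

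All 21 epidermal transcription factors of the list were tested and 17 were higher (medians 3.74 and 3.95). Where a factor was under 10 CPM in the other cells, its call was largely fixed by the filter. This count, too, is not to be read against the 6.05% of all genes. The list summed to 3382 CPM in proximal members, 1883 CPM in the other epithelial cells and 1080 CPM in the other cells. *Grhl1*, a grainyhead factor, was at 126 against 1.19 CPM and *Zfp750*, a regulator of terminal differentiation, at 94.0 against 1.31 CPM in the proximal library. *Ovol1* was at 336 against 7.88 CPM. *Klf4*, which is required for the skin barrier, was not called and was abundant in both groups (947 against 571 CPM proximal, 755 against 609 CPM distal). *Cebpb* and *Maf* were also not called. Of 8 tested genes of the Notch pathway 0 were higher and 1, *Hey1*, was lower, a share near the 17.8% of all genes. The 12 mitosis genes were all tested and 0 were called, with a summed level of 243 against 968 CPM in the proximal and 555 against 830 CPM in the distal library.

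Markers of blood, pigment, muscle and endothelial cells were low. *Ptprc*, *Tyrobp*, *Fcer1g*, *Laptm5* (immune cells), *Dct*, *Tyrp1* (melanocytes), *Myod1* and *Pax7* (myogenic cells) had 0 UMIs in members of both libraries. The 10 muscle genes summed to 3.72 and 0 CPM and the 7 endothelial genes to 6.32 and 4.36 CPM. *Shh* of the hair follicle list also had 0 UMIs, but the 8 genes of that list summed to 63.8 CPM in proximal and 89.7 CPM in distal members. The glial list held 1 gene called higher, *Erbb3* (84.8 against 2.74 CPM), a receptor that keratinocytes also use, while its defining gene *Sox10* was at 0.137 CPM. The list of periderm (the early epidermal cover) and simple epithelium was not low. Of its 8 genes, 4 were tested and 2, *Cldn4* and *Grhl3*, which are also on the tight junction and transcription factor lists, were higher (medians 4.89 and 5.38). It summed to 703 CPM in members, 1413 CPM in the other epithelial cells and 62.8 CPM in all other cells of the proximal library, and to 827, 1308 and 17.4 CPM in the distal library. The simple keratins *Krt8* and *Krt18* of the same list were at 0.820 and 2.49 CPM in proximal members.

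Compared with the other epithelial cells of the same libraries, members differed in fewer genes. These reference cells carried more mesenchymal RNA than members did. The mesenchyme list was at 5723 against 2574 CPM in the proximal and 14565 against 979 CPM in the distal library. The part of mesenchymal RNA in the genes lower in members was not tested. Of 8828 genes tested, 345 (3.91%) were 4-fold or more higher and 467 (5.29%) 4-fold or more lower in both libraries. Of the 556 genes higher than in all other cells, 307 were also 4-fold or more higher than in the other epithelial cells in both libraries, and 52 were within 2-fold of them in both. The genes with the largest ratio, named by the same rule but after the values were seen, were *Ly6g6c*, *Hrnr*, *Krt77*, *Serpinb12* and *Cnfn*. *Orm1*, an acute-phase carrier protein, was at 1047 against 0.767 CPM in the proximal and 193 against 0 CPM in the distal library.

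The 15 lowest genes of that comparison were *Cxcl14*, *Pdgfa*, *Col17a1*, *Ctnnal1*, *Ccnd2*, *Lef1*, *Cav1*, *Wnt6*, *Lmo1*, *Irx1*, *Itga6*, *Sox4*, *Igfbp2*, *Cygb* and *Filip1l*. *Cxcl14*, a chemokine of the basal epidermis, was at 32.8 against 721 CPM in the proximal and 36.8 against 992 CPM in the distal library. *Col17a1* and *Itga6*, which belong to the hemidesmosomes that hold basal cells to the basement membrane, were at 7.45 against 146 CPM and 7.45 against 127 CPM in the proximal library. The cyclin *Ccnd2* was at 41.3 against 687 CPM and 63.5 against 873 CPM, and the Wnt pathway genes *Lef1* and *Wnt6* were at 4.85 against 76.3 CPM and 7.14 against 184 CPM in the proximal library. *Trp63*, the master factor of stratified epithelium, stood between, at 42.5 CPM in members, 108 CPM in the other epithelial cells and 4.54 CPM in all other cells.

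Members were not uniform, and those with 3 or 4 rule genes carried basal as well as spinous RNA at the median. The 46 proximal members with 3 genes were mixed. Their lower and upper quartiles per cell were 251 and 20063 CPM for the basal list and 573 and 25387 CPM for the mesenchyme list. The basal list had a median level per cell of 10881 CPM in proximal members with 3 genes, 6454 with 4, 281 with 5 and 63.6 with 6. The spinous list went the other way, from 8309 through 27205 and 53424 to 67620 CPM. The granular list had medians of 165, 444, 1659 and 4724 CPM, and the barrier lipid list of 127, 265, 908 and 1787 CPM. The distal medians of the granular list were 333, 314, 1598 and 4535 CPM, and those of the basal list 22525, 3846, 2641 and 109 CPM, from 4, 7, 10 and 11 cells.

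Mitosis genes were found at the low end. Their median was 982 CPM in the 46 proximal members with 3 rule genes and 31.1 CPM in the 469 with 6. In the distal library the medians were 95.5, 942, 15.5 and 30.1 CPM for 3, 4, 5 and 6 genes. *Krt14* was at 4822 CPM in proximal members with 3 or 4 genes and 38.3 CPM in those with 6, and *Krt5* at 3174 and 20.6 CPM. Cells with 5 or 6 rule genes were also deeper than those with 3 or 4, with proximal medians of 28795.5, 25057, 34506 and 49266 UMIs for 3, 4, 5 and 6 genes, and the part of depth in the order was not tested. Members with 3 genes had a median of 1329 CPM of the mesenchyme list and those with 6 a median of 231 CPM. Without the mesenchyme-positive members, the log2 ratio of 6 over 3 or 4 genes in the proximal library was -7.08 in place of -6.42 for the basal list and 3.70 in place of 3.95 for the granular list.

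**Figure D4:**
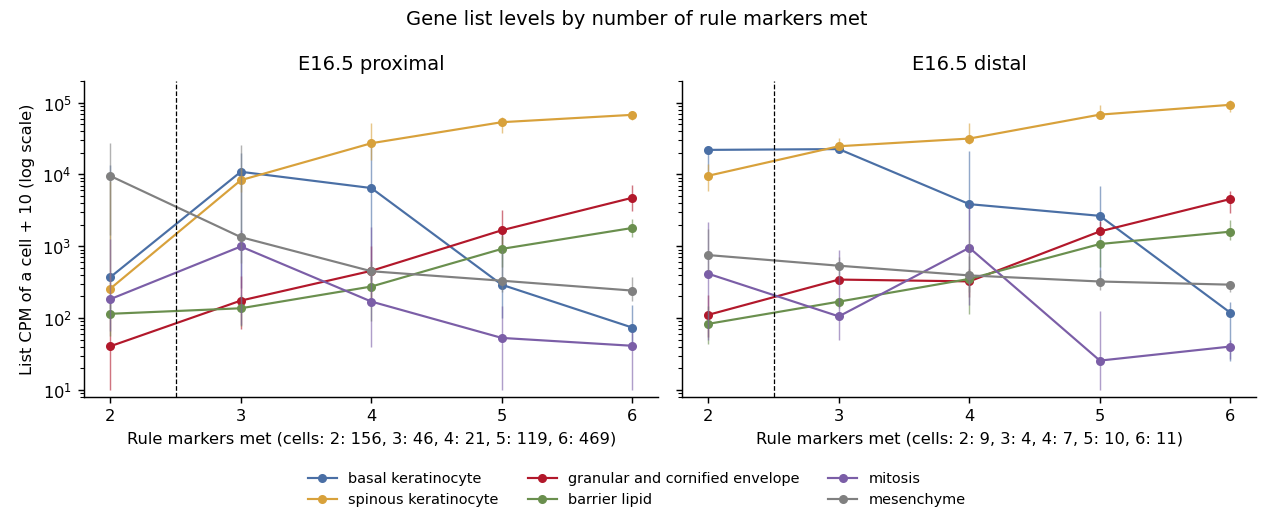
Level of 6 gene lists per cell (y axis, CPM + 10, log scale) in cells that met 2 to 6 rule genes (x axis), with medians as points and quartiles as vertical lines. To the right of the dashed threshold the basal list drops from 10881 to 63.6 CPM in the proximal library while the granular list climbs from 165 to 4724 CPM.

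The level of *Lor* set off a subset of the proximal members. *Lor* made up 0 to 11.8% of a proximal member's UMIs, with a median of 0.0459%. In 140 members it was 1% or more, and these held 89.4% of all *Lor* UMIs of proximal members. In 377 members it was under 0.1%, and 138 lay between, 95 of all proximal members being between 0.5% and 2%. The classes are therefore ranges of 1 measure. In the distal library 2 members were at 1% or more and 28 under 0.1%.

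*Lor* is itself a rule gene, so this split is not independent of the number of rule genes met. Several other late genes were higher in the 140 *Lor*-rich than in the 377 *Lor*-poor members. *Crct1*, a cysteine-rich gene of the epidermal differentiation complex, was at 1250 against 3.46 CPM. *Lce3f* was at 165 against 0 CPM, *Hrnr* at 2161 against 48.3 CPM, *Cnfn* (cornifelin) at 1607 against 42.4 CPM, *Ivl* at 727 against 66.4 CPM and *Hopx*, a homeodomain cofactor, at 630 against 23.4 CPM. The growth factor *Ereg* was at 225 against 2.13 CPM. Of the granular list, *Tgm1* (237 against 123 CPM) and *Casp14* (144 against 88.2 CPM) differed less, and *Rptn* was lower (0 against 2.60 CPM). *Krt77* was at 2643 against 204 CPM, whereas *Krt1* was lower, at 5332 against 11168 CPM.

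Basal and proliferation genes lay on the other side. *Krt5* was at 2.53 CPM in the *Lor*-rich and 635 CPM in the *Lor*-poor members, *Krt14* at 10.3 and 876 CPM, *Notch1*, the receptor that acts at the basal to spinous switch, at 6.40 and 67.6 CPM and *Birc5* at 5.07 and 58.8 CPM. tdTomato did not follow this axis, with 940 CPM in the *Lor*-rich and 934 CPM in the *Lor*-poor members. Their median depths were 56218.5 and 40723 UMIs.

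**Figure D5:**
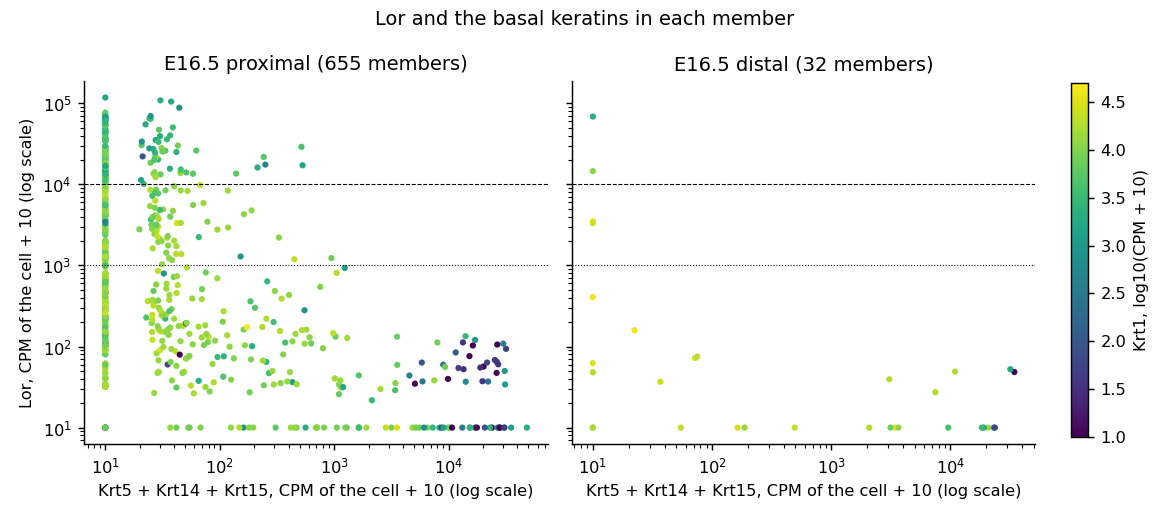
*Lor* (y axis, CPM + 10, log scale) against the sum of *Krt5*, *Krt14* and *Krt15* (x axis, CPM + 10, log scale) in each member, coloured by *Krt1* as log10(CPM + 10), with lines at 0.1% (dotted) and 1% (dashed) of UMIs. Values of 0 are drawn at 10, and the 140 proximal members above the dashed line have few or no basal keratin UMIs.

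Few genes differed by 4-fold between distal and proximal members. Of 6758 genes tested, 39 (0.577%) were 4-fold or more higher and 65 (0.962%) 4-fold or more lower in distal members. Some of these differed as much between the other cells of the 2 libraries. *Rpl29* was at 7.72 CPM in proximal and 484 CPM in distal members (log2 ratio 5.80) and differed by 5.26 between the other cells. *Gm10076* (3.31 in members, 3.20 in other cells), *Gm3550* (-4.86 and -4.75), *Rpl36-ps3* (-4.10 and -3.15) and *Gm10263* (-4.08 and -4.53) did likewise. These are ribosomal protein genes and gene models, and the 2 libraries were counted with different Cell Ranger versions. The part of read sharing between near-identical copies and of the software version was not tested.

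For several other genes higher in distal members, 1 cell held most of the UMIs. *Socs3* (8.17 and 64.2 CPM), *Fos* (106 and 712 CPM) and *Hist1h2ap* (5.06 and 57.3 CPM) had 93.2%, 77.4% and 60.9% of their distal UMIs in 1 member. Among members with all 6 rule genes their log2 ratios were -1.65, 1.15 and -0.73. *Hist1h2ae* had 83.1% in 1 cell. *Hist1h1e* and *Nfkbiz* were spread more widely, with 47.9% and 26.8% in 1 cell and UMIs in 62.5% and 68.8% of distal members, but among members with all 6 rule genes both were under 4-fold.

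Genes lower in distal members included some that were under 1 CPM in the other cells of both libraries. The antiprotease *Slpi* was at 62.6 CPM in proximal and 1.87 CPM in distal members (-4.47), but was found in only 14.7% of proximal members. *Serpina3j* was at 64.7 and 1.25 CPM (-4.87) and was found in 61.5% of proximal and 6.25% of distal members. The hair keratin-associated gene *Krtap3-2* was at 70.1 and 3.74 CPM (-3.91), and at 0.506 and 0.0444 CPM in the other cells of these libraries. *Krt6a*, named after its values were seen, was at 45.6 and 0.623 CPM. *Col2a1* (-4.64) and *Col9a3* (-3.66) were lower too, and they were also lower in the other distal cells (-2.05 and -2.20). Without the mesenchyme-positive members 42 genes in place of 65 were lower in distal members.

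The distal members held relatively more cells with few rule genes, and keratin levels are given on both bases. *Krt14* was at 457 CPM in proximal and 1411 CPM in distal members and *Krt5* at 327 and 1275 CPM. Among members with all 6 genes the direction turned, with *Krt14* at 38.3 and 3.76 CPM and *Krt5* at 20.6 and 3.76 CPM. These distal values came from 11 cells with 797793 UMIs in all and rest on few UMIs. *Krt1* stayed higher in distal members on either basis (log2 ratio 1.12 in all members, 1.32 in those with all 6 genes), and so did *Krt10* (0.96 and 1.18).

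Several of the genes lie together in the epidermal differentiation complex of chromosome 3. In the window from *S100a1* to *S100a11* (chr3:90511034-93526287, GRCm38) 79 genes were listed and 23 tested besides the rule genes, of which 16 (69.6%) were called higher and 4 lower. Most of the higher genes were under 10 CPM in the other cells and entered only through members, so that their share is not to be read against the 6.05% of all genes, and the share of lower genes is near the 17.8% of all genes. The 4 lower genes there were *S100a1*, *S100a4*, *S100a6* and *S100a13*. *S100a6* was at 93.7 against 1160 CPM in the proximal library. *S100a14* was at 1068 against 10.6 CPM. In other families, 10 of 12 tested *Serpinb* genes, 6 of 6 kallikreins (*Klk*), 6 of 7 *Sprr* genes and 7 of 14 keratins were higher, and so was 1 of 94 ribosomal protein genes. The *Klk* and *Sprr* genes tested and the *Serpinb* genes called higher were under 10 CPM in the other cells, so that their counts were fixed by the filter and are not to be read against the 6.05%. *Sprr2i* was the *Sprr* gene not called, with 0.513 CPM in proximal and 21.8 CPM in distal members.

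Promoters of the rule genes and of the 15 leading genes were searched, since these genes were higher in members together. Of these 21 genes 17 were matched and searched in RefSeq promoter entries (GRCm38.p6). The search covered the 250 bases upstream of the start on both strands. TGANTCA, with any base at N, includes the AP-1 site TGAGTCA, at which JUN and FOS family factors bind, and reads the same on both strands. It is wider than that site and also matches TGAATCA, the form in *Sprr1b*. TATAAA spells the TATA box. Each motif was counted by itself, overlaps included. Below, the last 150 bases before the start are printed 5′ to 3′ on the gene's strand, with both motifs in capitals.
Lor: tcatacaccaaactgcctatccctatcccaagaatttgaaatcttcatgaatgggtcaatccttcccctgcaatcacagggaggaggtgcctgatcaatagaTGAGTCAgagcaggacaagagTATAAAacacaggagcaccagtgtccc
Sprr1a: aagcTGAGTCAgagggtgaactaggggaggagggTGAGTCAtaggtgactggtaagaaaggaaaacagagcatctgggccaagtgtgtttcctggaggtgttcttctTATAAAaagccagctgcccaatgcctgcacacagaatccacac
Sprr1b: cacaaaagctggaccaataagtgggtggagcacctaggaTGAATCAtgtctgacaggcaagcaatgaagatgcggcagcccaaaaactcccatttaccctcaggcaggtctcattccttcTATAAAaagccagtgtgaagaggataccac
Krtdap: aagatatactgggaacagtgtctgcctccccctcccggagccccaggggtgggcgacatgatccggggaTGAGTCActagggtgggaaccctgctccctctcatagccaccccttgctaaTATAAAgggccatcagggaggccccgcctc

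These stretches are chr3:92083143-92083292 (*Lor*, minus strand), chr3:92485882-92486031 (*Sprr1a*, minus strand), chr3:92438780-92438929 (*Sprr1b*, minus strand) and chr7:30787755-30787904 (*Krtdap*, plus strand). They were chosen as the 2 rule genes, and as examples of the leading genes, that hold both motifs. In *Lor* the AP-1 letters begin 48 bases and the TATA letters 27 bases before the start. *Sprr1a* holds TGANTCA at 146 and 116 bases before the start. *Calm4*, *Asprv1* and *Them5* hold neither in the window searched, and *Krt10* holds only TATAAA.

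Over all genes called higher, 64 of 490 promoter entries (13.1%) held TGANTCA, compared with 6.25% of all 21959 entries, 4.46% of the 9045 entries of tested genes and 4.35% of the 1609 entries of genes called lower. TATAAA was present in 13.1% of the entries of higher genes, 11.2% of all, 6.57% of those tested and 7.96% of those called lower. For the remaining motifs searched, the shares of entries of higher genes, of all genes, of tested genes and of lower genes were as follows. CCAAT was in 31.8%, 34.7%, 34.5% and 30.6%, and GGGCGG in 48.2%, 41.5%, 60.5% and 57.2%. AACCNG was in 39.2%, 34.5%, 36.5% and 30.8%. CACCC was in 65.7%, 54.3%, 57.7% and 63.7%, and TTGNNNAA in 34.3%, 31.2%, 24.1% and 24.7%. The share of GGGCGG in higher genes was thus above that of all entries and below that of tested genes, and the share of CACCC was near that of lower genes. A gene can have several entries, and these shares are descriptions with no test.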

How the data were processed

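RNA was measured as 10x 3′ single-cell libraries. The authors aligned reads to a modified mm10 reference with Cell Ranger, version 3.0.2 for the proximal and 6.0.1 for the distal library per the file headers, and deposited raw UMI counts per gene and barcode. Total UMIs were 236408650 (proximal) and 160375326 (distal), and 11109 of 11716 and 8447 of 9061 barcodes passed the filter of 3000 UMIs and 10% mitochondrial UMIs, the latter limit chosen here. Symbols carried by more than 1 identifier (56 of 27936) were summed. Groups were compared by UMIs summed over cells, as the log2 ratio of CPM with a pseudocount of 1 CPM. Tested were genes that reached 10 CPM in either group, and a 4-fold difference in both libraries was called. Positions came from GENCODE vM21 (27624 symbols).

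Named were the rule genes, tdTomato, CreERT2 and *Hic1*, the 15 largest ratios in each direction held by both libraries and the 8 largest per direction between segments, at 50 CPM or more, without mitochondrial, haemoglobin and sex-linked genes, and examples of the gene lists. The members and lists were chosen with earlier results of these data known. Intervals are exact (Clopper-Pearson or Poisson, 95%) and cover counting error only. Shares were compared after thinning each cell to 3000 UMIs. The call rule was tested on simulated data. Alternatives changed the rule, the depth, doublets, weighting, pseudocount and filter. Python 3.11.15, numpy, scipy, pandas and scanpy (Scrublet) were used. The 6 libraries other than E16.5 were searched for members, and those found at E14.5 were set against the other E14.5 cells. A few genes of the lists are not reported here by name.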

Additional observations from a re-analysis of the deposited data

Results flagged for a closer look

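The rule also found 15 cells at E14.5, a library that the comparisons above do not use, out of 8381 (0.179%). Their lowest depth was 14897 UMIs. They met 3 (8 cells), 4 (6 cells) or 5 (1 cell) of the rule genes. *Asprv1* (2 to 32 UMIs) and *Them5* (2 to 11 UMIs) were present in all 15, whereas *Sprr1a* was present in 3 and *Lor* had a median of 2 UMIs, and *Lor* was at 9.34 CPM in the other E14.5 cells. *Krtdap* was at 5801 CPM, *Krt10* at 1173 CPM, *Krt1* at 659 CPM and *Krt5* at 1181 CPM. tdTomato had 0 to 12 UMIs per cell (145 CPM, 110 to 186) against 428 CPM in the other E14.5 cells, and *Hic1* had 1 UMI.

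*Cxcl2*, a chemokine gene, was the 1 gene tested that lay 4-fold or more in opposite directions in the 2 libraries, with a log2 ratio of 2.55 in proximal and -3.72 in distal members. The difference was not tested. Proximal members held 373 *Cxcl2* UMIs (12.7 CPM) in 15 cells, 233 of them in 1 cell, against 1.34 CPM in the other proximal cells. Distal members held 1 UMI, against 20.3 CPM in the other distal cells.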

How the results depend on the processing

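A share of members is called moved here when it left the counting interval of the main setting. The proximal share moved to 12.1% with 1 UMI per rule gene, 5.28% on thinned cells and 5.07% without mesenchyme-positive members. The distal share moved in no setting, but its interval is wide. Distal members numbered 41 with 1 UMI per rule gene and 22 on thinned cells, in place of 32. The tdTomato ratio kept its direction throughout and was -0.40 with 1 UMI per rule gene, -0.58 without the top 8% of Scrublet scores and -0.59 as a mean over cells, all proximal. Without thinning, the difference in the share of cells with a tdTomato UMI reversed, to 0.134 percentage points from -5.14 (proximal) and to 0.844 from -8.66 (distal). The proximal *Hic1* ratio was -1.12 with 1 UMI per rule gene, -3.74 with 4 rule genes, -3.83 on thinned cells, -4.73 without the top Scrublet scores and -5.67 without mesenchyme-positive members, and the distal bound was -3.58 on thinned cells. Its shares differed by -24.1 and -32.6 percentage points without thinning.

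Higher genes numbered 276 with a pseudocount of 10 CPM. Lower genes numbered 4 with 1 UMI per rule gene, 477 with that pseudocount and 991 when centred. All 15 named lower genes lost their call with 1 UMI per rule gene. Between segments, a pseudocount of 10 CPM left 7 higher and 17 lower. The number lower was also 478 with 1 UMI per rule gene, 35 without the top Scrublet scores, 42 without mesenchyme-positive members, 129 with no filter and 152 in members with all 6 genes. Of the 8 named genes higher in distal members, 4 were called without the member with the most *Fos* UMIs, and 2 on thinned cells. The list ratios without mesenchyme-positive members were -7.08 and 3.70. The top-score, mesenchyme, centring, 6-gene and left-out-member settings were chosen after seeing the data. No paired analysis was possible because each segment had 1 library. With 32 distal members, genes under about 10 CPM rest on few UMIs.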
